A study of Mus musculus with 2 samples.

Results

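GC-rich distal regions are stretches of open chromatin with a GC content of at least 60% that lie away from annotated transcription starts. They were chosen from the conservative list of reproducible peaks of both replicates on chromosomes 1 to 19, after overlapping peaks had been merged into regions that kept the strongest summit. A region was distal when its summit lay over 1 kb from every GENCODE M21 transcript start of any biotype, and GC-rich when at least 60% of its bases in the mm10 assembly were G or C. The rule gave 997 members among 47248 distal regions, 2.11% (Wilson 95% interval 1.98 to 2.24), of 65789 regions in all. The other 46251 distal regions served for comparison. Within 1 kb of a start, 7256 of 18541 regions were GC-rich, 39.1%.

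The assay was ATAC-seq, which marks accessible DNA by the insertion of sequencing adapters with a transposase, in untreated primary common myeloid progenitors from adult male C57BL/6J mice aged 5 to 6 weeks, with 50000 cells per library. These bone marrow cells give rise to the erythroid, megakaryocytic, granulocytic and monocytic lineages. There was 1 group with 2 libraries, biological replicates 1 and 2 per the labels. They share a donor label, so a difference between them may be technical, and only the labels of replicate 1 name sequencing instruments, of which there are 2. Of the marker genes, 3 of 3 for progenitors, 2 of 2 for erythroid cells and 3 of 3 for granulocyte and monocyte progenitors had a region within 1 kb of a start, and 0 of 5 mature neutrophil, 0 of 3 B cell, 0 of 3 T cell, 0 of 3 hepatocyte and 0 of 3 muscle and neuron markers did. The erythroid marker Gata1 was not used here. The files hold peak signals and p-values but no read counts, so depth is unknown. Intervals therefore reflect only the counting of regions, which are not replicates. Shares are given with Wilson 95% intervals and differences of shares with Newcombe 95% intervals.

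CpG islands are stretches of DNA in which the CpG dinucleotide, depleted from most of the mammalian genome, is kept at high density. Most lie at promoters and are free of DNA methylation. Orphan CpG islands lie away from annotated starts, within genes or between them, and some act as starts of unannotated transcripts or as parts of enhancers. Unmethylated CpG is bound by proteins with a CXXC zinc finger, such as KDM2B and CFP1, which bring Polycomb or trithorax-type complexes. Neither DNA methylation nor histone marks were measured here.

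The CpG island label held for only part of the set. The ratio of observed to expected CpG had a median of 0.579 in the 997 members, against 0.216 in the other distal regions and 0.785 in GC-rich regions near a start. The members held a median of 26 CpG per region, against 5 in the other distal regions. Of the members, 473 (47.4%, 44.4 to 50.5) reached an observed over expected ratio of 0.6 and are called CpG-dense here, against 1.85% of the other distal regions; the background over all distal regions was 2.81%. The remaining 524 members, called CpG-poor, were rich in G and C without being rich in CpG. A 500 bp window over the summit that met the stricter island criteria, a GC content of at least 55% and a ratio of at least 0.65, was found for 489 members (49.0%, 46.0 to 52.1). It was found for 0.947% of the other distal regions and 1.96% of all distal regions. The GC part of these criteria follows from the choice of the members, so only the CpG part is a separate measurement. Among GC-rich regions near a start, which meet the same GC threshold, 92.0% passed, so members passed less often by 42.9 points (39.7 to 46.1). The looser 200 bp criteria were met by 64.2% of the members, 6.68% of the other distal regions and 94.8% of the GC-rich regions near a start.

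**Figure D1:**
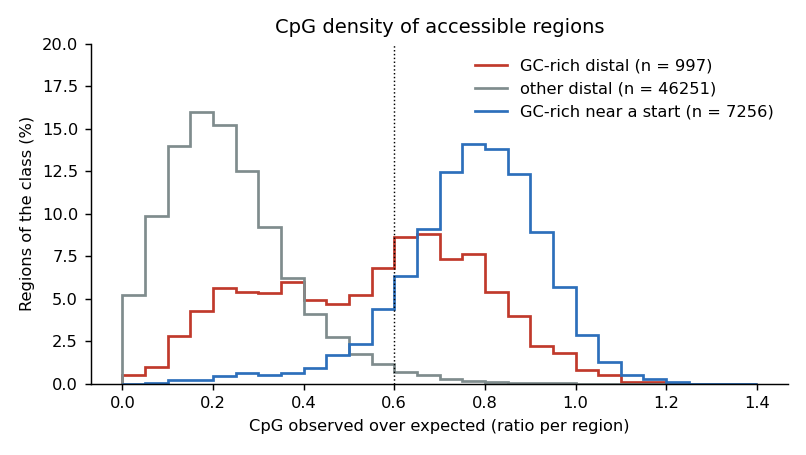
The histogram plots the observed over expected CpG ratio of each region (horizontal axis) against the share of regions of its class in percent (vertical axis), in bins of 0.05, for GC-rich distal, other distal and GC-rich regions near a start; the dotted line marks 0.6. GC-rich distal regions spread over both sides of the line, with a median of 0.579, while other distal regions centre on 0.216 and GC-rich regions near a start on 0.785.

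Sequences around the summits show both kinds of member. They were chosen by signal among members whose printed window meets no annotated exon. Gm21119 marks the strongest CpG-dense member between genes and Plekha1 the strongest in an intron, that of Fgfr2, which encodes a fibroblast growth factor receptor. Bpifb9b and Hs1bp3 mark the strongest CpG-poor members among these, between genes and in an intron; 2 stronger CpG-poor intronic members, in Kcp and Gipr, have windows that meet an exon. Eya1 marks the member farthest from any start. All are 151 bases of the + strand of mm10, centred on the summit, with every CpG in capitals, and each is named for the nearest protein-coding gene.
Gm21119, chr8:20550140-20550290: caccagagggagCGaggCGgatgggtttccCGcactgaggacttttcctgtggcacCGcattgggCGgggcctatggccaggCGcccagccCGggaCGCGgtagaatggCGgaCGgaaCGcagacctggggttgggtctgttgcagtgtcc
Plekha1, chr7:130834444-130834594: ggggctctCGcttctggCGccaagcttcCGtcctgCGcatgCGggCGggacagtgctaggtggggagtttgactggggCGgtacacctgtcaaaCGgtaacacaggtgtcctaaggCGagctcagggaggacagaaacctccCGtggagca
Bpifb9b, chr2:154300662-154300812: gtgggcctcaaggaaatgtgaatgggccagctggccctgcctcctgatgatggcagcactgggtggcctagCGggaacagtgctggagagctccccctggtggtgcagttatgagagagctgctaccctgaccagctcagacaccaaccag
Hs1bp3, chr12:8320185-8320335: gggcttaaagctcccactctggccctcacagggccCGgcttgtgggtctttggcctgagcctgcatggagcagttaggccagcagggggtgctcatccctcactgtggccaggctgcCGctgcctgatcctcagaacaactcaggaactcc
Eya1, chr1:14506593-14506743: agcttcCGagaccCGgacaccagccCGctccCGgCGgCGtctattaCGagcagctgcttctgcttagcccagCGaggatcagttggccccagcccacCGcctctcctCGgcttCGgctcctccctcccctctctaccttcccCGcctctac
The windows near Gm21119, Plekha1 and Eya1 held 12, 10 and 12 CpG, and those near Bpifb9b and Hs1bp3 held 1 and 2, although all 5 windows lay between 60.9% and 66.9% GC. The central 31 bases of the Gm21119 and Plekha1 windows occur 2 and 5 times in the genome, so the place of those reads is uncertain. Over the set, 16 members (1.60%) had central bases that occur more than once, against 1.81% of the other distal regions.

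Members lay closer to starts and more often in exons than other distal regions. Their median distance to the nearest start of any biotype was 4436 bp, against 10455 bp in the other distal regions. Within 5 kb of a start lay 53.8% of the members (50.7 to 56.8) and 27.2% of the other distal regions, a difference of 26.6 points (23.4 to 29.7). Only 0.401% of the members lay over 100 kb from any start, against 2.26% of the other distal regions. Coding exons held 178 members, 17.9%, against 1.28% of the other distal regions, a difference of 16.6 points (14.3 to 19.1). Untranslated or non-coding exons held 7.32% of the members and 3.80% of the other distal regions. Introns held 36.7% of the members and 52.0% of the other distal regions, 15.3 points fewer (12.3 to 18.3). Between genes lay 38.1% of the members and 42.9% of the other distal regions, a difference of -4.79 points (-7.79 to -1.71). That difference turned to 1.09 points (-2.69 to 4.91) when only regions over 2500 bp from a start were used, to 2.02 points (-3.80 to 7.90) in the upper 50% of distal regions by signal, and its interval included 0 in the own list of either replicate.

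**Figure D2:**
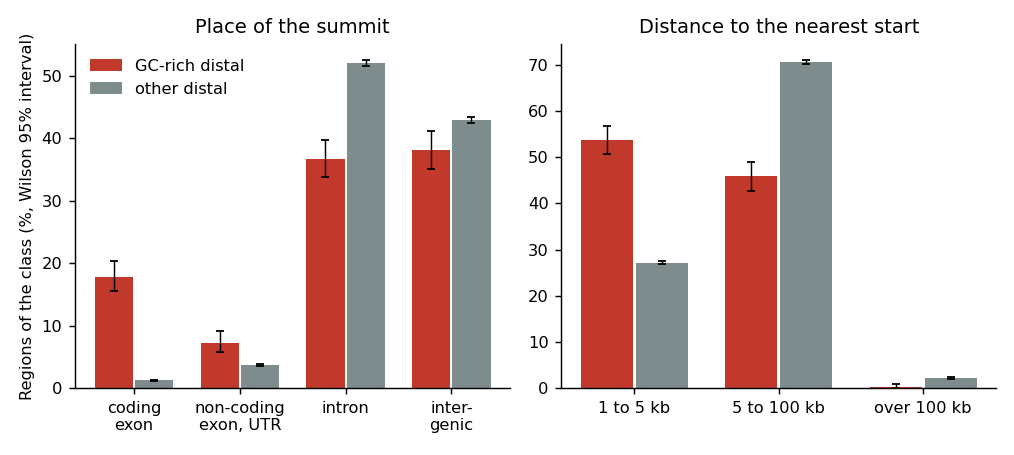
Bars show the share of regions in percent whose summit lay in each annotated place (left) and at each distance to the nearest start (right), for GC-rich distal regions and other distal regions, with Wilson 95% intervals as error bars. GC-rich distal regions had 17.9% of summits in coding exons, against 1.28%, and 53.8% within 5 kb of a start, against 27.2%.

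RefSeq, an annotation that the rule did not use, places starts near some members. Within 1 kb of a RefSeq start lay 148 members, 14.8% (12.8 to 17.2), against 3.74% of the other distal regions. They were 19.9% of CpG-dense and 10.3% of CpG-poor members, a difference of 9.57 points (5.14 to 14.0). Without these regions 849 members remained, and the share within 5 kb of a GENCODE start and the share in exons kept their direction, 25.3 and 21.4 points above the other distal regions. Few members were repeats: 0.201% had at least 50% of their bases marked as repeat, against 2.66% of the other distal regions. The share of distal regions that were GC-rich ran from 0.890% on chromosome 13 to 3.60% on chromosome 11.

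The strongest members lay mostly between genes. The 15 with the highest signal were all found in the own lists of both replicates, which come from the same libraries as the joint signal. In the top of 5 equal classes by signal, 92.4% of members and 91.8% of other distal regions were found in both. Of the 15, 13 were intergenic and 2 intronic, 8 were CpG-dense and 1 lay within 1 kb of a RefSeq start. The strongest, at chr8:20550058-20550585, is 528 bp long with 43 CpG and lay 64.7 kb upstream of Gm21119. Its signal was 28.6 in the joint list, 25.3 in replicate 1 and 24.5 in replicate 2. Next came a CpG-dense region at chr17:23699841-23700647, 6.04 kb downstream of the start of 1520401A03Rik, with signals of 17.8 and 20.4 in replicates 1 and 2. A CpG-dense region at chr16:13754365-13755240, 23.6 kb upstream of Pla2g10, which encodes a secreted phospholipase A2, had signals of 18.1 and 19.5 and lay 24 bp from a RefSeq start. These 3 were high in both replicates, and the highest replicate signal of any member was the 25.3 near Gm21119. The central 31 bases of the member near Gm21119 occur 2 times in the genome, so the place of its reads is uncertain.

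CpG-poor members were also among the strongest. The region at chr2:154300442-154300891, 6.49 kb upstream of Bpifb9b, held 1 CpG in 450 bp, and its signals were 17.0 and 17.6 in replicates 1 and 2. A region at chr19:44487279-44487925, 6.005 kb upstream of Wnt8b, a Wnt ligand gene, had an observed over expected ratio of 0.170 and signals of 17.2 and 16.5. The region at chr7:130834366-130834657 in the Fgfr2 intron was CpG-dense, with 20 CpG in 292 bp, and had signals of 16.5 and 18.2. Its central 31 bases occur 5 times in the genome, so the place of its reads is uncertain. St6galnac3, which encodes a sialyltransferase, had a CpG-poor member 76.7 kb away at chr3:153148910-153149249, with signals of 15.1 in replicate 1 and 10.03 in replicate 2, a wide gap for this set. The others of the 15 were nearest to Nkain1, Tex50, Atp6v1fnb, Ccdc65, Endov, Usp14, Apol7a and Epm2a, with joint signals between 15.6 and 18.1. Endov encodes an endonuclease that cuts at inosine, Usp14 a deubiquitinase of the proteasome, and Epm2a the glycogen phosphatase laforin.

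The members densest in CpG lay in coding exons. Among members of at least 300 bp, the 5 highest observed over expected ratios ran from 1.07 to 1.19, all in coding exons. The highest, 1.19, belonged to chr7:127253983-127254681 in a coding exon of the zinc finger gene Zfp771, nearest to the start of Dctpp1, with 104 CpG in 699 bp and signals of 6.70 and 6.85 in replicates 1 and 2. It was found in both own lists. A region in a coding exon of Cdh22, a cadherin gene, had signals of 9.90 and 11.4 and was also found in both. Those in coding exons of Garem2, of Plvap, which encodes a protein of the endothelial diaphragm, and of the potassium channel gene Kcnj9 had signals between 4.66 and 6.52 in either replicate and were found in neither own list.

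Only 4 members lay over 100 kb from any start. The farthest was the region 196 kb upstream of Eya1 printed above, at chr1:14506309-14506890, with 37 CpG, a ratio of 0.636 and signals of 7.51 and 6.92. It was found in the own list of replicate 1 and not in that of replicate 2. Regions 144 kb from the start of the SRY-box factor gene Sox6 and 114 kb into Atrnl1 were CpG-poor, had signals of 8.92 and 7.43 and of 9.46 and 8.18, and were likewise found in replicate 1 alone. An intronic region of Sox5 and one 98.2 kb from any start, nearest to Snrpn, had no peak in the ranked list of replicate 2. Of these 5 members, none was found in the own list of replicate 2, which held 48.4% of all members and 54.9% of all regions. The count describes these 5 members only.

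Members were spread thinly over genes. Given to the nearest protein-coding start within 100 kb, they fell to 826 of 20807 genes, 3.97%, of which 713 had 1 member, 92 had 2, 15 had 3, 4 had 4 and 2 had 6. The nearest gene had a region within 1 kb of a start for 75.7% of the members and 80.4% of the other distal regions, a difference of -4.69 points (-7.47 to -2.12). Members lay upstream of that start in 40.9% of cases, against 48.1% of the other distal regions.

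The genes with 6 members were Tac4 and Runx3. Tac4 encodes the tachykinin hemokinin, known from haematopoietic cells. Its 6 members all lay upstream, between 1.77 and 50.6 kb from the start, with joint signals from 4.55 to 9.85, beside 1 other distal region. Of these members, 4 were found in replicate 1, 2 in replicate 2 and 1 in both. Runx3 encodes a RUNX factor of haematopoietic cells. Its 6 members had joint signals from 5.10 to 9.45 beside 15 other distal regions, 3 were found in both replicates and 1 was CpG-dense. Acot11, Gse1, Bahcc1 and Nfic had 4 members each. Gse1 had 27 other distal regions and Acot11 had 3, and none of the members of either was CpG-dense. Bahcc1, which encodes a chromatin protein with a BAH domain, had 3 of 4 members found in both replicates, and Nfic, a nuclear factor I gene, had 1 of 4. Klf4, Pard6b, Ptma and Dll4 came next with 3 each, of 15 genes with that number. All 3 at Ptma, which encodes prothymosin, were CpG-dense and found in both replicates, and at Dll4, which encodes a Notch ligand, 2 were CpG-dense and 1 was found in both.

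Gene lists are described by counts beside the 3.97% of all protein-coding genes that were nearest to a member. Of all genes, 13221 had an open start, that is a region within 1 kb of it, and 57.5% were nearest to another distal region. The lists differ in both, and the part of this in the counts was not tested. Of 18 stem and progenitor regulators, 5 (27.8%, 12.5 to 50.9) had a member, Mecom, Meis1, Runx1, Tal1 and Zfpm1, with 10 regions in all. All 18 had an open start and 17 had another distal region. Meis1, a homeobox gene of stem cells, had 2 CpG-dense members upstream, 1.51 and 8.45 kb from its start, the nearer one 843 bp from a RefSeq start. The farther one had signals of 10.1 and 9.80 in replicates 1 and 2 and the nearer one 5.72 and 6.80, and both were found in both replicates. Mecom, which encodes the factor EVI1, had 2 CpG-dense members in introns. The one 1.04 kb into the gene had signals of 6.97 and 6.90 and was found in both replicates, and the one upstream had 8.75 and 7.84 and was found in replicate 1. The Runx1 member, 1.48 kb upstream of a start, had signals of 7.57 and 7.10 and was found in both. Tal1, which encodes the factor SCL, had members 3.66 kb upstream, with signals of 3.56 and 3.87 and found in replicate 1, and 3.26 kb into the gene, with 5.79 and 5.94 and found in both. Zfpm1, which encodes the GATA cofactor FOG1, had members with joint signals of 2.95, 5.95 and 8.80, and the weakest was found in neither replicate. The strongest of them lay 51.2 kb upstream of Zfpm1 and 462 bp from a RefSeq start, and the weakest 213 bp from a RefSeq start.

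Lineage genes had members at shares whose intervals include that of all genes. Of 15 granulocyte and monocyte genes, 11 with an open start and 14 with another distal region, 1 (6.67%, 1.19 to 29.8) had a member, Klf4, which encodes a Kruppel-like factor of monocytes. Its strongest member, 16.9 kb from the start at chr4:55514567-55515371, had signals of 14.6 and 11.9 and was found in both replicates. A coding exon member of Klf4, 1.39 kb from the start, had 6.00 and 5.29 and was found in replicate 1. Of 15 matched erythroid and megakaryocyte genes, 14 with an open start and 12 with another distal region, 1 had a member. Klf1, the erythroid Kruppel-like factor gene, had a CpG-dense member in a coding exon with signals of 7.61 and 8.36, found in both replicates.

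Developmental transcription factors, most of them genes of other tissues, had a member at 11 of 52 (21.2%, 12.2 to 34.0). Their starts were open at 21 of the 52 and they had another distal region at 40. The strongest in the joint list was 1 of the 2 members of Neurog2, a neurogenic factor gene. It lay 7.69 kb upstream with signals of 10.5 and 8.90 in replicates 1 and 2, and the other Neurog2 member lay in a coding exon with 8.76 and 8.11. Both were CpG-dense and found in both replicates. Pax2, a factor of kidney and ear, had a member 5.14 kb upstream with signals of 7.39 and 9.37, found in both. Gata4, a factor of heart and endoderm, had a CpG-dense intronic member with a signal of 8.58 in replicate 1 and no peak in the ranked list of replicate 2. The members of Hand2 and Irx3 were found in neither own list, with signals between 4.60 and 5.57. Barhl2, Lhx2, Lhx6 and Nkx6-1 had members found in replicate 1 alone, and Gbx2 and Zic1 members found in both. The Irx3 and Zic1 members lay 27 and 931 bp from a RefSeq start.

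Of 34 genes for CpG-binding, DNA methylation and Polycomb proteins, 6 (17.6%, 8.35 to 33.5) had a member, and 31 had an open start and 27 another distal region. Dnmt3a, which encodes a de novo DNA methyltransferase, had a CpG-poor intronic member with signals of 9.28 and 9.84, found in both replicates. Cbx8, which encodes a chromodomain subunit of a Polycomb complex, had a member 12.5 kb upstream with a ratio of 1.02 and signals of 6.73 and 7.92, also found in both. The 3 members of Cxxc5, which encodes a CXXC protein, had joint signals between 4.27 and 5.38, and none of the 3 was found in both replicates. Of 34 matched imprinted genes, 6 had a member, Ascl2, Cdkn1c, Dlk1, Impact, Peg10 and Rasgrf1, and 21 had an open start and 23 another distal region. The Rasgrf1 member lay 30.1 kb upstream at chr9:89879593-89879999, with 31 CpG, a ratio of 0.805 and signals of 7.55 and 8.23, found in both replicates. In mouse, an upstream element of Rasgrf1 that is methylated on the paternal allele controls its imprinting, and whether the member meets it was not tested. Dlk1 had members 58.8 and 16.4 kb upstream, CpG-poor both, with joint signals of 12.7 and 3.95. Peg10 had a CpG-poor member 1.89 kb into the gene with signals of 8.20 and 8.11.

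Members had a lower peak signal than other distal regions in both replicates. The signal is the authors' own value per peak, its scale is not stated, and it is compared here only within a list. In the joint list the members ran from 2.07 to 28.6 with a median of 6.59, against a median of 8.17 in the other distal regions. In the ranked list of replicate 1 the median was 6.21 in members and 7.39 in other distal regions, and in that of replicate 2 it was 6.33 in members and 7.57 in other distal regions. The mean log2 signal was 2.76 ± 0.52 in members and 3.04 ± 0.52 in other distal regions (SD over regions), a difference of -0.28 (least squares, robust 95% interval -0.31 to -0.25). It was -0.24 (-0.27 to -0.21) in replicate 1 and -0.24 (-0.27 to -0.20) in replicate 2. When the rule was applied to each replicate's own list, which does not use the other library, the difference was -0.24 with 787 members in replicate 1 and -0.21 with 556 in replicate 2. The median member stood at the 28.1 percentile of signal among distal regions. The top 10% of distal regions by signal held 32 members, 3.21% of the set, against 10.1% of the other distal regions, and the bottom 10% held 239, 23.97%, against 9.70%.

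The lower signal did not extend to the p-value of the peaks. The authors' −log10 p had a median of 39.6 in members and 38.8 in other distal regions. At like signal, members had the higher −log10 p: in the middle of 5 equal classes of distal regions by signal the medians were 48.0 in members and 35.0 in other distal regions. Members were also wider: their median width was 487 bp, that of other distal regions 452 bp, and the mean log2 width was 0.14 higher (0.10 to 0.19). In the archived list of replicated peaks, which holds 5797 such regions, they were narrower, by -0.17 (-0.19 to -0.14).

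Above 45% GC, the joint signal was lower in each further class of GC content, on both sides of the threshold. The median joint signal was 8.42 below 40% GC, 8.58 at 40 to 45%, 8.35 at 45 to 50%, 7.95 at 50 to 55%, 7.41 at 55 to 60%, 6.70 at 60 to 65%, 6.55 at 65 to 70% and 6.45 in the 36 members of at least 70%. The 175 members just inside the threshold, up to 60.5% GC, had a median signal of 7.09 and were found in both replicates in 48.0% of cases. The 184 other distal regions just outside it, from 59.5%, had a median of 7.16 and a share of 46.7%. The 36 members with the highest GC content stood apart in replicate 2, where 22.2% were found in the own list, against 63.9% in that of replicate 1.

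**Figure D3:**
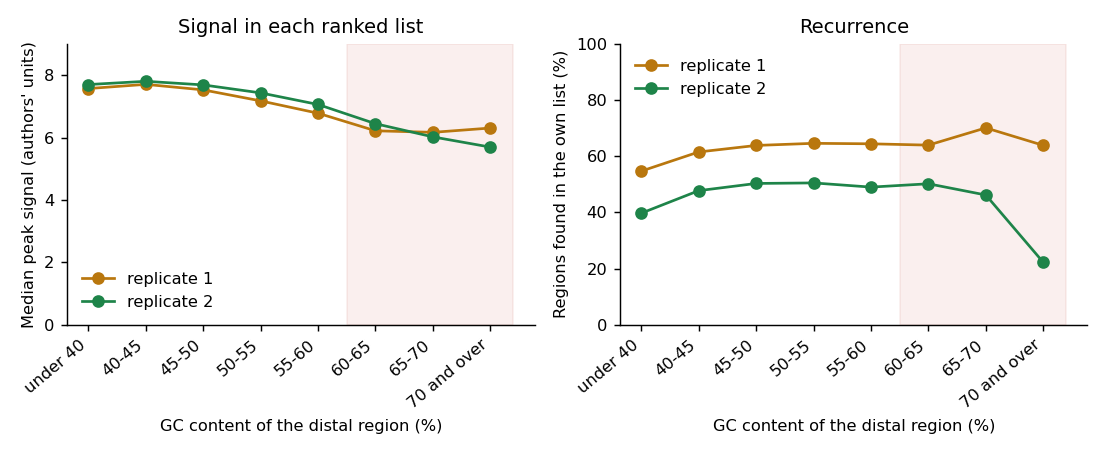
The left plot gives the median peak signal in the authors' units in each replicate's ranked list, and the right plot the share of regions in percent found in each replicate's own list, for distal regions in 8 classes of GC content; the shaded classes are the GC-rich members. Median signal is lower at high GC content in both replicates, and in the class of 70% and over 63.9% were found in replicate 1 and 22.2% in replicate 2.

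Signals of members were correlated between the libraries to a degree close to that of other distal regions. Across 947 members with a peak in both ranked lists, Spearman's rho between the replicates' signals was 0.895 and Pearson's r of their logarithms 0.906, against 0.882 and 0.895 across 42998 other distal regions. These correlations run across regions of the same pair of libraries and carry no p. The log2 ratio of replicate 2 to replicate 1 averaged 0.04 ± 0.21 in members and 0.03 ± 0.22 in other distal regions (SD over regions). Of the members, 98.3% had a peak in the ranked list of replicate 1 and 96.3% in that of replicate 2. All regions come from a list of peaks reproducible between this pair of libraries. The correlations and these shares thus follow in part from that choice.

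**Figure D4:**
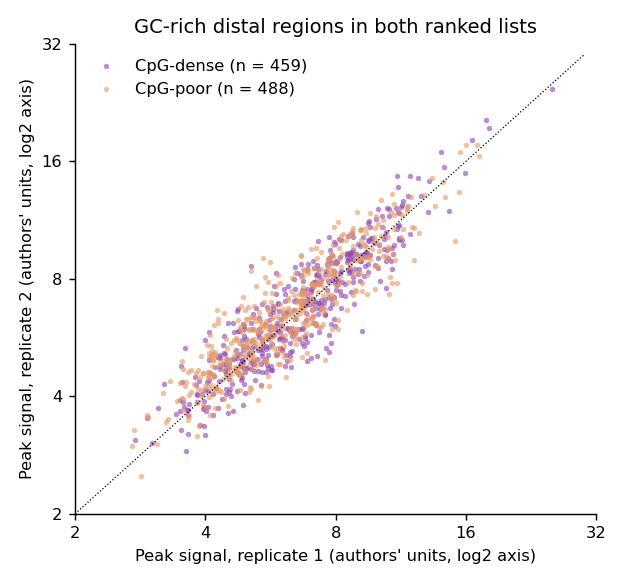
Each point is 1 of the 947 members with a peak in both ranked lists, at its signal in replicate 1 (horizontal) and replicate 2 (vertical), in the authors' units on log2 axes; 459 are CpG-dense and 488 CpG-poor, and the dotted line marks equal values. The members lie along the line (Spearman's rho 0.895), and CpG-dense and CpG-poor members overlap over most of the range.

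How often members recurred in the replicates, beside other distal regions, depended on which regions were used and on how GC content was taken. A region was found in a replicate when it met a region of that replicate's own thresholded list by at least 1 bp. Replicate 1 held 649 members, 65.1% (62.1 to 68.0), and 63.0% of the other distal regions, against 67.9% of all regions. Replicate 2 held 483 members, 48.4% (45.4 to 51.5), and 49.0% of the other distal regions, against 54.9% of all regions. Both held 445 members, 44.6% (41.6 to 47.7), and 44.0% of the other distal regions, against 50.6% of all regions. The difference in the share found in both was 0.637 points (-2.46 to 3.77). It was 12.8 points (9.51 to 16.1) with GC content taken over 500 bp at the summit, 12.2 points (7.44 to 16.04) in the upper 50% of distal regions by signal and -3.85 points (-4.57 to -3.09) in the archived list. GC-rich regions near a start were found in both in 72.6% of cases, so members recurred less often than these by 28.0 points (24.7 to 31.2). Those regions had a median −log10 p of 76.2, against 39.6 in members, and a median width of 777 bp, against 487 bp. The part of strength and width in this difference was not tested. Replicate 1 alone held 20.5% of the members and 19.01% of the other distal regions, and 31.1% of the members were in neither list.

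Starting from each library gave different signs. Of 787 members by the rule in replicate 1's own list, 65.3% met replicate 2, against 67.3% of the other distal regions there, a difference of -1.96 points (-5.40 to 1.32). Of 556 in replicate 2's own list, 93.0% met replicate 1, against 89.2% of the other distal regions, a difference of 3.83 points (1.37 to 5.72).

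At like signal members were found more often than other distal regions, but not at like −log10 p. In the second weakest of 5 equal classes by signal, 41.1% of members and 18.3% of other distal regions were found in both replicates, and in the strongest class 92.4% of members and 91.8% of other distal regions. A logistic regression across all distal regions with deciles of signal and log2 width gave an odds ratio of 2.125 for being found in both (Wald 95% interval 1.805 to 2.503, adjusted p = 4.592e-19 over 6 fits, n = 47248 regions). The ratios were 2.225 for replicate 1 and 1.809 for replicate 2. These fits count regions of the same pair of libraries as independent, so the p does not measure spread between libraries. The joint signal and the own lists also come from the same libraries. With deciles of −log10 p in place of signal, a choice made after seeing the data, the odds ratio for both was 0.893 (0.721 to 1.106), that for replicate 1 was 1.072 (0.874 to 1.315) and that for replicate 2 was 0.795 (0.651 to 0.971). With signal again, the odds ratio for both was 1.051 (0.929 to 1.188) when overlapping peaks were not merged and 1.711 (1.497 to 1.955) in the archived list. Also by signal, it was 1.134 (0.957 to 1.342) for finding members of replicate 1's own list in replicate 2. For finding those of replicate 2's own list in replicate 1 it was 2.306 (1.645 to 3.233). In 5 equal classes by −log10 p the shares found in both lay close together: 32.5% of members and 37.1% of other distal regions in the middle class, and 81.1% of members and 80.4% of other distal regions in the next. In the lowest class 0% of members and 0.0972% of other distal regions were found in both, and in the highest 99.0% and 98.4%. These end classes thus left little room for a difference. The higher recurrence at like strength thus appeared by signal in the merged joint list, the archived list and replicate 2's own list. By signal without merging, and in replicate 1's own list, the interval included 1. By −log10 p the interval for both included 1.

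**Figure D5:**
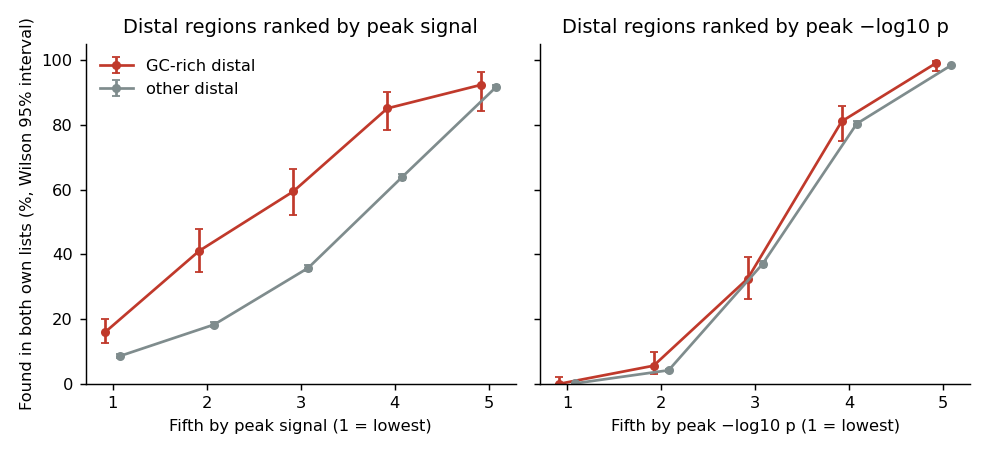
Points give the share of regions in percent found in the own lists of both replicates, with Wilson 95% intervals, for GC-rich distal and other distal regions in 5 equal classes of all distal regions by peak signal (left) and by −log10 p (right). By signal the GC-rich distal regions lie higher in the lower classes (41.1% against 18.3% in class 2), and by −log10 p the classes nearly coincide (81.1% against 80.4% in class 4).

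CpG-dense and CpG-poor members differed in place, width and recurrence. CpG-dense members lay in coding exons in 24.9% of cases and CpG-poor members in 11.5%, a difference of 13.5 points (8.74 to 18.3). In introns lay 29.4% of CpG-dense and 43.3% of CpG-poor members, a difference of -13.9 points (-19.7 to -7.97), and between genes 37.6% of CpG-dense and 38.5% of CpG-poor members. Within 5 kb of a start lay 60.3% of CpG-dense and 47.9% of CpG-poor members. The median width was 563 bp in CpG-dense and 448 bp in CpG-poor members, and the log2 width was 0.35 higher in CpG-dense members (0.27 to 0.44). The median signal was 6.73 in CpG-dense and 6.47 in CpG-poor members, and the log2 difference of 0.05 had an interval from -0.01 to 0.12. Median −log10 p was 43.6 in CpG-dense and 36.5 in CpG-poor members. As the ratio of 0.6 divides a continuous range, these are ranges of CpG density, not kinds of region.

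Replicate 1 held 73.2% of CpG-dense and 57.8% of CpG-poor members, a difference of 15.3 points (9.44 to 21.04). Replicate 2 held 51.2% of CpG-dense and 46.0% of CpG-poor members, a difference of 5.17 points (-1.04 to 11.3). Both held 49.0% of CpG-dense and 40.6% of CpG-poor members, a difference of 8.40 points (2.22 to 14.5). At like signal and width the odds ratio was 1.799 for replicate 1 (1.302 to 2.484, adjusted p = 0.0005483 over 6 fits, n = 997 regions), 0.834 for replicate 2 (0.605 to 1.148) and 0.998 for both (0.721 to 1.382). With −log10 p for signal it was 1.783 for replicate 1 (1.161 to 2.739), 0.457 for replicate 2 (0.295 to 0.709) and 0.590 for both (0.371 to 0.939). CpG-dense members were thus found more often in replicate 1 under either measure. In replicate 2 the odds ratio was below 1 under both, with an interval that included 1 by signal. Here too the p counts regions of the same pair of libraries, which are not replicates. The difference in the share found in both turned to -4.51 points (-23.4 to 13.4) at a GC threshold of 65%, to -3.81 points (-10.3 to 2.70) with GC content taken over 500 bp at the summit, and was 0.674 points (-5.96 to 7.30) by replicate 1's own list.

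By place, intergenic members had the highest share found in both replicates. Of 380 intergenic members 51.1% were found in both replicates (46.0 to 56.0), of 366 in introns 41.8% (36.9 to 46.9), of 178 in coding exons 38.8% (31.9 to 46.1) and of 73 in other exons 39.7% (29.3 to 51.2). The intervals of the exonic and intronic shares overlap, and those of intergenic and intronic members meet at 46.0 to 46.9%. Intergenic members also had the highest median signal, 7.06, against 6.21 in introns, 6.82 in coding exons and 6.13 in other exons. The part of signal in these shares was not tested. Coding exon members were CpG-dense in 66.3% of cases and intronic ones in 38.0%.

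Transcription factor motifs were sought as exact matches on either strand within 50 bp of the summit, 17 in all, and 743 members (321 of them found in both replicates) held none. Each share is a description, and a match is not a bound site. The SP motif, GGGGCGGGG, bound by SP factors, matched in 5.42% of the members, 0.625% of the other distal regions and 11.7% of GC-rich regions near a start. The NFY motif, CCAATCA, matched in 2.01% of members, 1.17% of other distal regions and 5.68% of GC-rich regions near a start. The PU.1, RUNX and GATA motifs were rarer in members than in other distal regions and more frequent than in GC-rich regions near a start. For PU.1, GAGGAAGT, the factor of myeloid and lymphoid cells, the shares were 3.01% of members, 7.17% of other distal regions and 1.31% of GC-rich regions near a start. RUNX factors, whose motif is TGTGGTT, had 1.91% of members, 9.04% of other distal regions and 0.854% of GC-rich regions near a start. For the GATA factors, whose motif is AGATAA, these were 1.81%, against 8.42% of other distal regions and 0.923% of GC-rich regions near a start. These motifs hold fewer G and C than that of SP, base composition differs between the classes by the rule, and its part in these shares was not tested. In windows centred 500 bp from the members' summits PU.1 matched in 0.489%, RUNX in 1.16% and GATA in 2.69%.

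CTCF, which shapes chromatin loops, was searched by its consensus and matched in 55 members, 5.52% (4.26 to 7.11), against 8.12% of other distal regions and 0.896% of GC-rich regions near a start. In flanking windows 1 match was found, 0.0611%. The difference from other distal regions was -2.60 points (-3.88 to -0.986), but it turned to 0.359 points (-0.411 to 1.19) at a GC threshold of 55%, and its interval included 0 at 65%, in the upper 50% by signal and in replicate 2's own list. CpG-dense members matched in 3.38% of cases and CpG-poor members in 7.44%. Of the 55, 43.6% were found in both replicates, against 44.7% of the members without a match. The strongest member with a CTCF match outside exons, nearest to the homeobox gene Cdx2, had signals of 12.02 and 10.9 in replicates 1 and 2, and capitals mark the match.
Cdx2, chr5:147293230-147293380: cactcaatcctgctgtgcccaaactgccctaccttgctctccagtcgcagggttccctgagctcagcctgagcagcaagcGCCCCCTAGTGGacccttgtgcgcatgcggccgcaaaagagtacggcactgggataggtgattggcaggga
The NRF1 motif, GCGCATGCG, of a factor whose binding is blocked by DNA methylation, matched in 4 members, 0.401%, against 0.0692% of other distal regions and 1.31% of GC-rich regions near a start. The Cdx2 and Plekha1 windows each hold it, and a further intergenic member, nearest to Tmem44, is printed with the match in capitals. It had signals of 7.29 and 6.94 and was found in both replicates.
Tmem44, chr16:30510609-30510759: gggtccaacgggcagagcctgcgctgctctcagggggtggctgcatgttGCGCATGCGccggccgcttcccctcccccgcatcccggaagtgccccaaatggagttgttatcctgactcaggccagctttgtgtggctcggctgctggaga
The strongest member with a PU.1 match lay 15.04 kb upstream of Pgf, which encodes placental growth factor, had signals of 10.9 and 12.5 and was found in both replicates.
Pgf, chr12:85192757-85192907: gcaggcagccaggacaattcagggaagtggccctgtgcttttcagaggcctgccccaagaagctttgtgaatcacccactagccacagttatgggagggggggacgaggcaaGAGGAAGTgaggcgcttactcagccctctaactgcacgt
Of the remaining motifs, AP-1, TGANTCA, matched in 2.81% of members, 5.79% of other distal regions and 1.23% of GC-rich regions near a start. C/EBP, TTGCNNAA, matched in 2.61% of members, 5.86% of other distal regions and 1.85% of GC-rich regions near a start. For C/EBP, the interval of the difference from GC-rich regions near a start included 0. KLF, CCACACCC, matched in 1.60% of members, 1.79% of other distal regions and 1.76% of GC-rich regions near a start. The ETS motif, ACCGGAAGT, matched in 0 of 997 members, which allows a share of up to 0.301% (3 counts, with a Wilson upper limit of 0.384%). It matched in 0.119% of other distal regions and 0.689% of GC-rich regions near a start. EGR (GCGTGGGCG), YY1 (AAGATGGCG), REST (TTCAGCACC), CRE (TGACGTCA), E2F (GCGGGAAA) and ZBTB33 (TCTCGCGAG) each matched in 7 members or fewer. CRE matched in 0.702% of members, 0.223% of other distal regions and 1.71% of GC-rich regions near a start. For EGR these shares were 0.301%, 0.0454% and 0.772%, and for ZBTB33 0.201%, 0.00216% and 0.786%. The interval of the difference from other distal regions lay above 0 for CRE, EGR and ZBTB33, on 7, 3 and 2 members. For YY1, REST and E2F that interval included 0.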

How the data were processed

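Peak lists of 2 ATAC-seq libraries of 1 group, on mm10, were used. The deposited lists give a signal and a −log10 p per peak, as the authors' peak caller wrote them. Which aligner and peak caller made them, and whether reads were shifted, is not given in the sources used here. With no counts in the lists, depth is unknown and counts could not be tested. Overlapping peaks on chromosomes 1 to 19 were merged and annotated with GENCODE M21, RefSeq and the GRCm38.p6 sequence. Recurrence in each replicate's own IDR-thresholded list was compared with Newcombe intervals and a logistic regression, Benjamini-Hochberg adjusted over 6 fits, and log2 values by least squares with robust intervals. Methods were tested on simulated data. Of 175 listed genes, those matched by symbol were used, 6 lists in all. Named are the genes nearest to the 15 strongest members, the 10 with most members, the 5 members densest in CpG and the 5 farthest from a start, and listed genes with a member. Members and lists were chosen with earlier results of these data known. Alternatives were GC thresholds of 55 and 65% or over 500 bp, 2500 bp from a start, other peak lists, the upper 50%, no merging, 50% overlap, each replicate left out, RefSeq starts, unique summits and −log10 p for signal, the last 3 chosen after seeing the data. Tools were pysam 0.24.0, statsmodels 0.14.6, pandas 2.3.3, SciPy 1.17.1, NumPy 2.4.6 and matplotlib 3.10.9 under Python 3.11.15.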

Additional observations from a re-analysis of the deposited data

How the results depend on the processing

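Regions are not replicates, depth is unknown and intervals cover counting error only. No paired analysis was possible because the libraries form 1 group. The lower log2 signal, the higher share within 5 kb of a start and the higher share in exons kept their direction and their side of 0 under all 13 alternatives run for each. Of these alternatives, the 50% overlap changes only how recurrence is called, so it could not alter the signal, distance and exon results. For the results that did not keep their direction or side of 0, the cause was not tested. The number of members was 5178 and 220 at GC thresholds of 55% and 65%, 5797 in the archived list, 280 in the upper 50% by signal, 1548 without merging, and 556 to 787 by the own list of 1 replicate. The CpG-dense share was 14.1% and 86.8% at 55% and 65% GC, 43.1% over 2500 bp from a start, 26.7% in the archived list, 52.9% in the upper 50% and 54.1% without merging. The difference in the share found in both replicates was -3.12 points at 65% GC, -0.584 over 2500 bp from a start, -3.85 in the archived list, 12.8 with GC content over 500 bp, 12.2 in the upper 50%, and -1.96 to 3.83 with a replicate left out. The odds ratio at like signal was 1.051 without merging, 0.893 by −log10 p, and 1.134 to 2.306 with a replicate left out; that of CpG-dense over CpG-poor members was 0.590 by −log10 p. The width difference was -0.17 in the archived list. The intergenic difference was 1.09 points over 2500 bp from a start, 2.02 in the upper 50%, and -1.08 to -1.005 with a replicate left out. The CpG-dense minus CpG-poor share found in both was -4.51 at 65% GC, -3.81 with GC content over 500 bp, 5.97 at 50% overlap, and 0.674 to 5.62 with a replicate left out. The CTCF difference was 0.359 at 55% GC, -3.08 at 65%, -2.58 in the upper 50%, and -2.63 to -1.81 with a replicate left out.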
